A study of Mus musculus with 6 samples.

Results

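The tumour necrosis factor (TNF) superfamily was read in whole aorta of 32-week-old mice. It comprises the TNF-like ligands and the receptors that bind them. Members were all probe sets whose single platform gene symbol began with Tnfsf or Tnfrsf followed by a digit, together with Tnf, Lta, Ltb, Ltbr, Cd40, Cd40lg, Cd27, Cd70, Fas, Fasl, Ngfr and Eda2r, and without Tnfrsf11a and Tnfrsf11b. The rule used names only and no measured value. It found 59 of the 45101 probe sets on the arrays, which stood for 37 of 18193 named genes: 13 ligands, 23 receptors and Tnfsf13os, a transcript from the strand opposite Tnfsf13 that is not a ligand. RNA had been extracted from the aortas of C57BL/6J mice lacking apolipoprotein E (apoE-/-, 3 arrays) and of wild-type C57BL/6J mice (3 arrays), all 32 weeks old, with no treatment named. apoE-/- mice lack a carrier protein that clears lipoproteins, and develop high plasma cholesterol and arterial plaques. The labels give neither sex, diet nor pooling, nor whether the replicates were separate animals, so the spread behind each p-value is that between these extracts and may be technical.

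Ligands of this family are mostly trimeric membrane proteins, some of them released by proteases, and their receptors carry cysteine-rich repeats outside the cell. Receptors with a death domain can assemble caspase-activating complexes, whereas others bind TRAF adaptors and pass the signal to NF-kB and to stress kinases. In arteries the family is known for activation of endothelium by TNF, for help between T cells and antigen-presenting cells, for survival of B cells, and for death or growth of smooth muscle cells.

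Apoe itself read 239.5, 56.3 and 462.1 units in apoE-/- aorta, against 5686, 5625 and 4309 units in wild-type aorta, which matched the labels. Array medians lay between 178 and 195.5 units. For the Actb control probe sets, 3′ signal over 5′ signal came to 1.15 to 1.16 on apoE-/- arrays and 1.16 to 1.21 on wild-type arrays without overlap. For the Gapdh control probe sets the ratios overlapped, at 0.71 to 0.82 on apoE-/- arrays and 0.74 to 0.77 on wild-type arrays. The part of either ratio in the results below was not tested. Of 8 listed macrophage markers, 7 were called higher, where 3.15% of all tested genes were. The marker lists were chosen with earlier results of these data known. The summed intensity of the macrophage markers was 25238 to 35287 units in apoE-/- aorta and 13609 to 14678 units in wild-type aorta. Of 6 smooth muscle markers, which define the wall of the aorta, all were above the filter and none was called; they summed to 47586 to 58497 units in apoE-/- and 52513 to 61730 units in wild type. Skeletal muscle markers summed to 454 to 548 units in apoE-/- aorta, and to 854, 1031 and 15190 units in wild-type aorta, the last on the wild type replicate 3 array. No marker was at 0 on any array.

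Of the 37 genes, 23 lay above a filter that left out the dimmer 40% of probe sets, namely 6 ligands and 17 receptors, and 14 lay under it. Genes were compared with limma on log2(intensity + 16), fitted over all 13031 genes above the filter, and a gene was called where its p, adjusted by Benjamini-Hochberg, was under 0.05. Every log2 change is apoE-/- minus wild type on that scale, and every adjusted p of a gene above the filter comes from that fit. The offset of 16 makes the change of a dim gene look smaller.

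The family showed no common direction. Among its 23 tested genes only 2 were called, both receptors: Tnfrsf1b, the TNF receptor without a death domain, was higher in apoE-/- aorta, and Tnfrsf12a, the receptor of the TWEAK ligand, was lower. They make up 8.7% of the tested members, where 3.63% of all tested genes were called (3.15% higher and 0.483% lower), and a count of 2 does not set the family apart. With each of the 29 kept probe sets fitted on its own the count was also 2, where 3.05% of all kept probe sets were called. No ligand was called. An unadjusted p under 0.05 was found for 4 of the 6 ligands and 9 of the 23 members (39.1%), where 18.4% of all tested genes had one. Signs were mixed, with 12 positive and 11 negative log2 changes and a median of 0.00, against -0.05 over all genes tested. The 3 apoE-/- values lay entirely above the 3 wild-type values for 5 members and entirely below them for 4, together 39.1% of the members, where 24.6% of all tested genes had groups that did not overlap. Over all 59 probe sets, bright or dim, the groups did not overlap in 18, where 20.1% of all named probe sets did not.

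**Figure D1:**
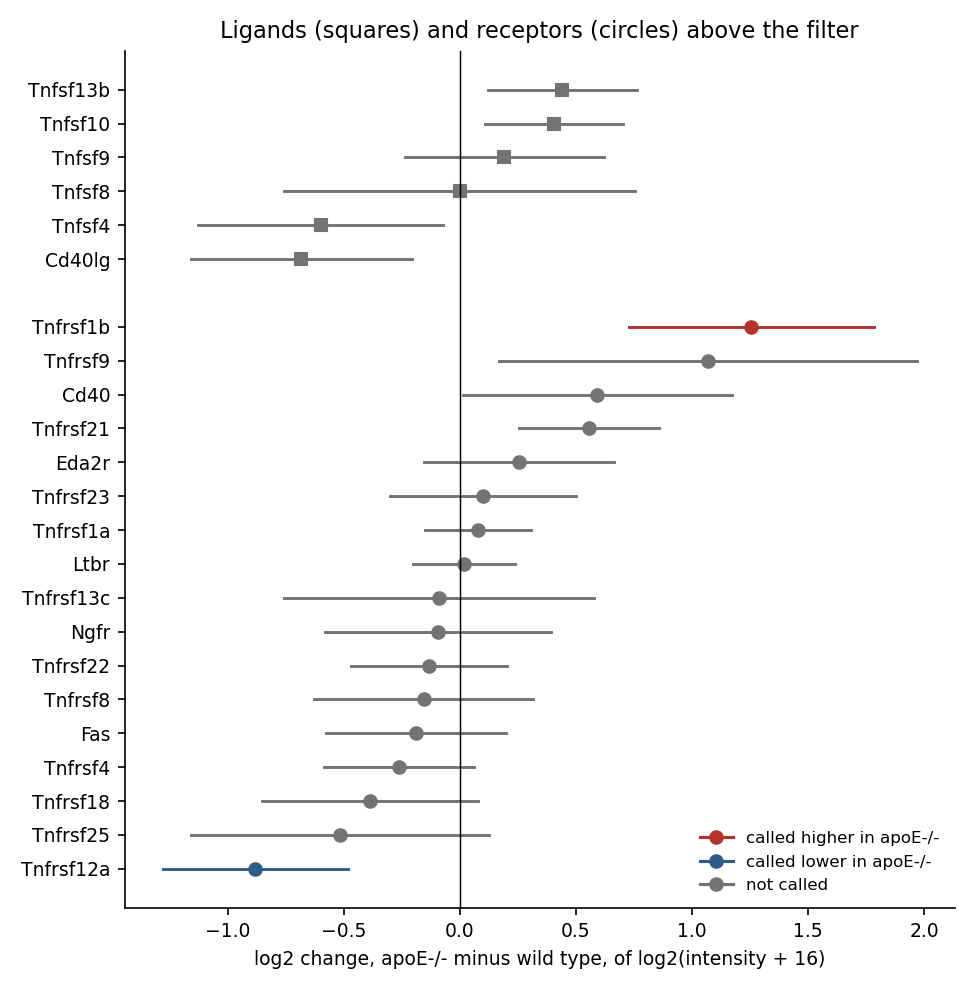
Log2 change of each tested ligand (squares, upper block) and receptor (circles, lower block) in apoE-/- minus wild-type aorta, on the scale of log2(intensity + 16), with 95% intervals from limma as lines. Tnfrsf1b at 1.26 and Tnfrsf12a at -0.88 are the members called, and all other members are grey.

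Tnfrsf1b, which is carried mainly by leukocytes and endothelium and signals through TRAF adaptors, read 1044, 719.6 and 1314 units in apoE-/- aorta, against 433.1, 491.2 and 317.7 units in wild-type aorta. Every apoE-/- array was above every wild-type array, and apoE-/- replicate 2 was the lowest of its group. The means were 1026 ± 297 units in apoE-/- and 414 ± 88.3 units in wild type (SD, n = 3 each), a log2 change of 1.26 ± 0.23 (SE; 95% interval 0.73 to 1.78; limma adjusted p = 0.0230). The probe sets of this gene disagreed. Its dimmer one read 249.2, 204.2 and 237.1 units in apoE-/- aorta and 164.5, 234.3 and 219.7 units in wild-type aorta. There the groups overlapped, and the log2 change was 0.16 ± 0.18 (SE, limma adjusted p = 0.713 with every kept probe set fitted on its own). Taking the median of both probe sets gave 0.71 (adjusted p = 0.0668), so the call rests on the brighter probe set. Leaving out apoE-/- replicate 1 (adjusted p = 0.109), apoE-/- replicate 3 (0.0864), wild type replicate 1 (0.0659) or wild type replicate 3 (0.0748) also ended the call, with log2 changes from 1.06 to 1.30 in those fits. The macrophage marker sums given above separated the genotypes in the same direction. Those of 5 dendritic cell markers did too (2385 to 3858 units in apoE-/-, 1183 to 1296 units in wild type). Of the 4 tested, 1 was called higher, Itgax, which averaged 2050 units in apoE-/- and 179.6 units in wild type. The other tested ones, Flt3, Zbtb46 and Siglech, had log2 changes of -0.20, -0.08 and -0.08. Xcr1, under the filter, had 0.16. That sum thus followed a single marker. The endothelial sums (6 markers, none called) overlapped, at 9982 to 12478 units in apoE-/- and 7527 to 10853 units in wild type. The part of these cell types in the Tnfrsf1b result was not tested. In bulk tissue, fewer cells of a type and less RNA per cell cannot be told apart, and likewise for more.

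Tnfrsf1a, the broadly expressed TNF receptor with a death domain, differed little between the genotypes. It read 3374, 3925 and 3516 units in apoE-/- aorta and 3595, 3582 and 3072 units in wild-type aorta, with overlapping groups. Its log2 change was 0.08 ± 0.10 (SE, limma adjusted p = 0.725), and the 95% interval ran from -0.15 to 0.31, so a change of the size seen in Tnfrsf1b lies outside it. The shared ligands of both receptors were under the filter. Tnf, the founding inflammatory cytokine, read 145.4, 101.6 and 38.0 units in apoE-/- aorta and 33.7, 35.5 and 28.1 units in wild-type aorta. All apoE-/- values were the higher ones, but apoE-/- replicate 3 exceeded the highest wild-type array by only a few units, while replicate 1 was far above it. In a fit of all 18193 genes without the filter, the Tnf log2 change was 1.06 ± 0.39 (SE, limma adjusted p = 0.258). Lta, the lymphotoxin that binds the same receptors, read 42.0, 24.9 and 25.0 units in apoE-/- aorta and 28.9, 24.9 and 15.5 units in wild-type aorta, with overlapping groups.

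Tnfrsf12a, a small receptor that is induced by growth factors and injury, read 1462, 1241 and 1530 units in apoE-/- aorta, against 2904, 3120 and 1937 units in wild-type aorta. The groups did not overlap, and wild type replicate 3 was the lowest of its group. The means were 1411 ± 151 units in apoE-/- and 2654 ± 630 units in wild type (SD, n = 3 each), a log2 change of -0.88 ± 0.18 (SE; 95% interval -1.28 to -0.48; limma adjusted p = 0.0320). A further probe set read 1061, 1285 and 1359 units in apoE-/- aorta and 2311, 1989 and 1418 units in wild-type aorta. It separated the groups in the same direction with a smaller log2 change of -0.60 ± 0.18, and was not called when each kept probe set was fitted on its own (limma adjusted p = 0.131). Skeletal muscle marker sums, given above, were lower on every apoE-/- array than on any wild-type array, and of the 3 tested markers 1, Ckm, was called lower (-0.71, adjusted p = 0.0218); their part in the Tnfrsf12a result was not tested. Wild type replicate 3 had the highest skeletal muscle sum and also the lowest wild-type Tnfrsf12a values. The other wild-type arrays still had higher skeletal muscle sums than any apoE-/- array, so leaving out replicate 3 is no test of that part. Without wild type replicate 3 the Tnfrsf12a call was kept, with a log2 change of -1.09 (adjusted p = 0.00857). Leaving out any other array ended it: the adjusted p became 0.113 for apoE-/- replicate 1, 0.0612 for apoE-/- replicate 2, 0.0898 for apoE-/- replicate 3, 0.112 for wild type replicate 1 and 0.0778 for wild type replicate 2, with log2 changes from -0.94 to -0.75. It was lost as well with arrays centred on their medians (-0.85, adjusted p = 0.0543), with no filter (adjusted p = 0.0550) and with the median of both probe sets (-0.74, adjusted p = 0.0553). Its ligand, TWEAK (Tnfsf12), had no probe set with that single symbol and so has no value here.

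**Figure D2:**
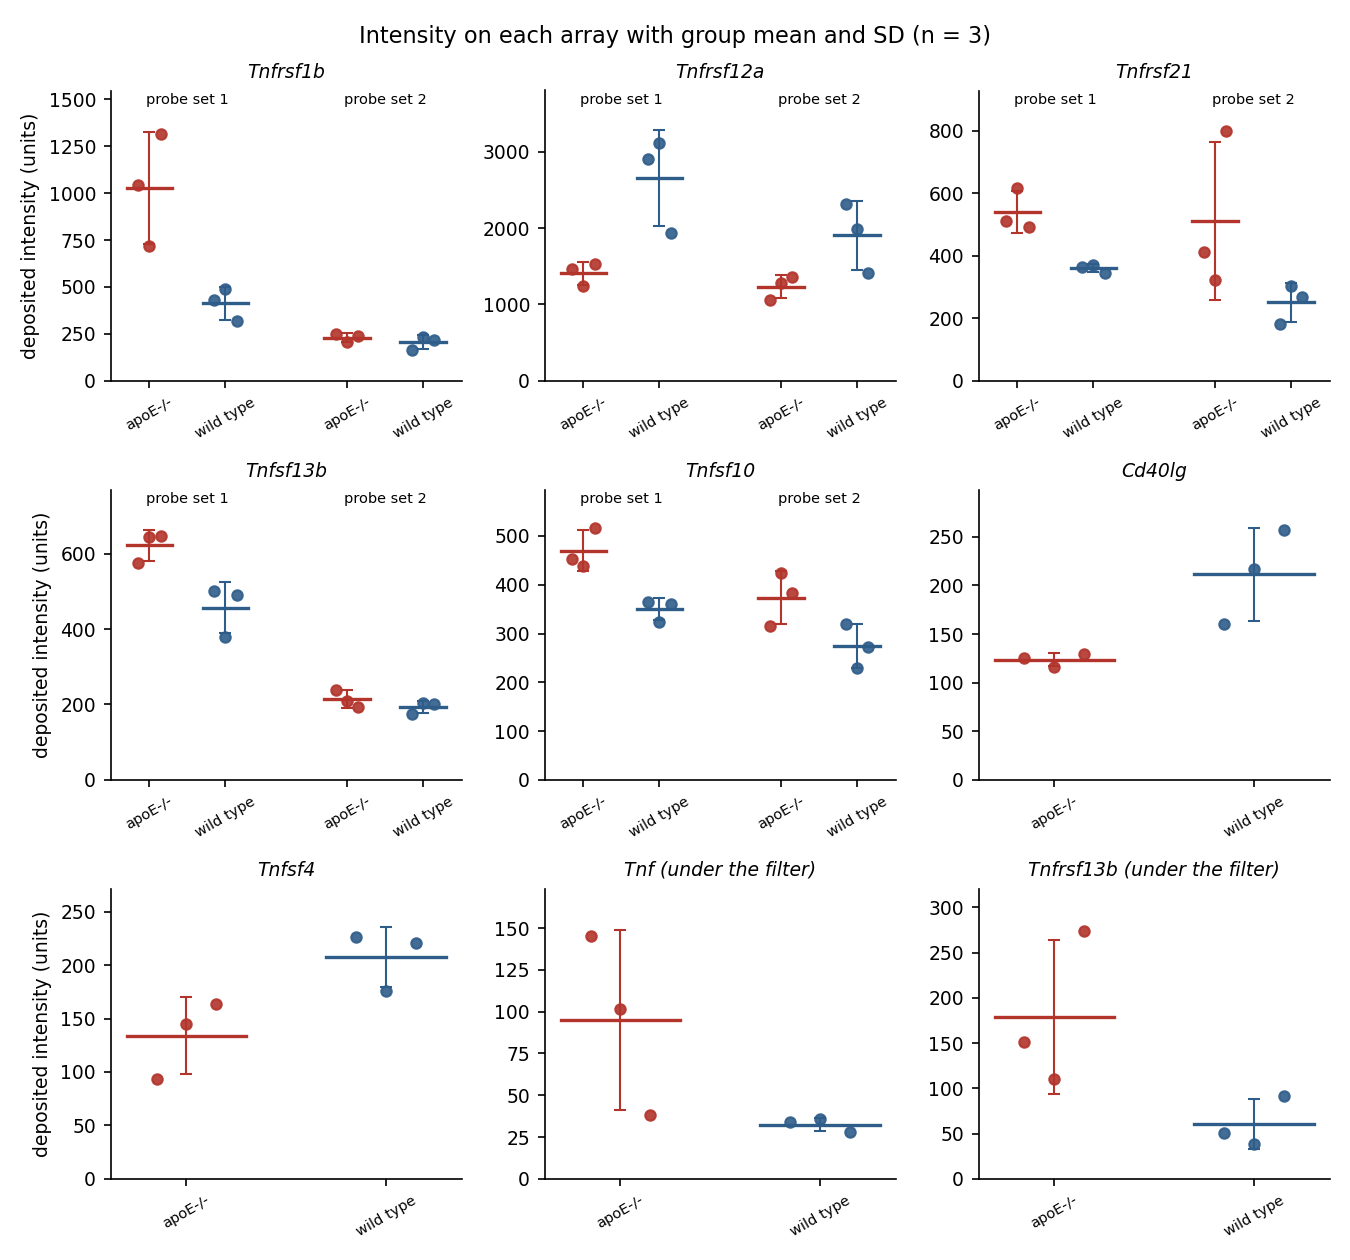
Deposited intensity (units, linear axes from 0) of 9 members on each array, apoE-/- on the left of wild type in each pair, with the group mean (horizontal line) and SD (bar), n = 3; where a member has several kept probe sets, probe set 1 is the brighter. The brighter Tnfrsf1b probe set separates the genotypes and the dimmer one does not, while both Tnfrsf12a probe sets are lower in apoE-/-.

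The sequences before the start of these 2 genes are printed because they were the only members called and changed in opposite directions. They are the 250 bases upstream of the annotated start, 5′ to 3′ on the gene's own strand, from RefSeq on GRCm38.p6. The Tnfrsf1b window lies at chr4:145246871-145247120 on the minus strand and the Tnfrsf12a window at chr17:23677450-23677699 on the minus strand. Capitals mark the GC box, GGGCGG on either strand.
Tnfrsf1b: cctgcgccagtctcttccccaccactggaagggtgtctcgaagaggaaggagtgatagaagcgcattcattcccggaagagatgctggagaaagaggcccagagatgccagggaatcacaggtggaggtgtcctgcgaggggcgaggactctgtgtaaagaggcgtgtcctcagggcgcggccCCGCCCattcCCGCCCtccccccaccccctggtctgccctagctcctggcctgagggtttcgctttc
Tnfrsf12a: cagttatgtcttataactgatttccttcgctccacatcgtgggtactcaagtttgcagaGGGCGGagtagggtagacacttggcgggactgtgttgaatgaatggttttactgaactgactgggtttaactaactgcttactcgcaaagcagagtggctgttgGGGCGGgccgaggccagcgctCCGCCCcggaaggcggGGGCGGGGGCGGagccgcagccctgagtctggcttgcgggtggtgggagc

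The GC box occurred 2 times in the Tnfrsf1b window and 5 times in the Tnfrsf12a window, the last 2 of them side by side. Of the 37 members, 29 had such a window, and 15 of these 29 held a GC box, against 35.4% of all 27025 genes with a window. Neither called gene had a match to the AP-1 motif TGANTCA or to the NF-kB motif on either strand, which says only that these letters are not in these windows. Among the 29 members, 5 had an AP-1 match (7.82% of all genes), namely Fas, Tnfrsf8, Tnfrsf9, Tnfsf13b and Tnfsf14. An NF-kB match was found in 4 (8.23% of all genes), namely Ltb, Tnfrsf8, Tnfrsf9 and Tnfrsf25. A match describes the letters of a window and not binding.

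Tnfrsf21, a receptor with a death domain, came closest to a call among the other members. It read 509.7, 617.6 and 492.6 units in apoE-/- aorta, against 364.1, 371.9 and 345.1 units in wild-type aorta, and the groups did not overlap. The log2 change was 0.56 ± 0.13 (SE, limma adjusted p = 0.0613). With arrays weighted by their quality it passed the test (0.55, adjusted p = 0.0490), the only alternative where it did. With single arrays left out the adjusted p ran from 0.110 to 0.181. A further probe set read 411.6, 321.1 and 798.1 units in apoE-/- aorta and 182.8, 302.4 and 267.5 units in wild-type aorta, again without overlap. Its log2 change was 0.90 ± 0.31 (limma adjusted p = 0.191 with every kept probe set fitted on its own). On that probe set apoE-/- replicate 3 was far above the other arrays, and apoE-/- replicate 2 lay just above the highest wild-type array.

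Among the ligands above the filter, Tnfsf13b and Tnfsf10 had the highest log2 changes, neither of them called. Tnfsf13b, the B cell survival factor BAFF, read 575.0, 645.8 and 646.7 units in apoE-/- aorta, against 500.7, 378.9 and 489.8 units in wild-type aorta. Its log2 change was 0.44 ± 0.14 (SE, limma adjusted p = 0.145), without overlap, while a dimmer kept probe set (0.13 ± 0.17) and one under the filter (-0.14) overlapped. Tnfsf10, the death-inducing ligand TRAIL, read 453.2, 438.1 and 517.1 units in apoE-/- aorta, against 364.6, 323.9 and 361.1 units in wild-type aorta. Its log2 change was 0.41 ± 0.13 (SE, adjusted p = 0.148), and a further kept probe set gave 0.43 ± 0.17 with overlapping groups, as did one under the filter (0.48). Both ligands were thus modestly higher on every apoE-/- array by their brightest probe set, and neither passed the test over all genes under any alternative tried.

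Cd40lg and Tnfsf4, which T cells and antigen-presenting cells use to activate one another, had negative log2 changes. Cd40lg, the ligand of Cd40, read 125.1, 116.3 and 129.5 units in apoE-/- aorta, against 160.7, 216.9 and 256.5 units in wild-type aorta. The groups did not overlap, and the log2 change was -0.68 ± 0.21 (SE, limma adjusted p = 0.133). Tnfsf4, a costimulatory ligand of activated antigen-presenting cells, read 93.5, 144.8 and 163.6 units in apoE-/- aorta, against 226.7, 175.4 and 220.5 units in wild-type aorta. Its groups did not overlap either, and the log2 change was -0.60 ± 0.23 (SE, adjusted p = 0.218). All values of both ligands were dim, between 93.5 and 256.5 units, where the dimmest kept probe set had a mean near 119 units and no detection calls exist. Of 6 T cell markers with a probe set, 4 were under the filter and none was called, and their sums overlapped (653 to 971 units in apoE-/-, 697 to 862 units in wild type). The ligands Tnfsf9 and Tnfsf8 had log2 changes of 0.19 and 0.00 with overlapping groups.

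Receptors of lymphocyte costimulation and of antigen-presenting cells gave mixed values. Cd40, the receptor through which T cells activate B cells and macrophages, read 190.8, 141.2 and 282.4 units in apoE-/- aorta and 112.9, 142.1 and 122.5 units in wild-type aorta at its brightest probe set. The groups overlapped by a single pair of nearly equal values, and the log2 change was 0.59 ± 0.25 (SE, limma adjusted p = 0.261). The other Cd40 probe sets, both under the filter, separated the groups upward in apoE-/- aorta with log2 changes of 1.33 ± 0.39 and 1.03 ± 0.30, neither called with every named probe set fitted (limma adjusted p = 0.185 and 0.174). Tnfrsf9, a costimulatory receptor of activated T cells, read 237.9, 187.3 and 261.8 units in apoE-/- aorta and 83.1, 210.9 and 53.0 units in wild-type aorta. Its log2 change of 1.07 ± 0.40 was not called (adjusted p = 0.201). The wild-type mean of 115.7 units was below the dimmest kept probe set, near 119 units, so Tnfrsf9 passed the filter through the apoE-/- arrays. Wild type replicate 2 lay within the apoE-/- range. Tnfrsf9 was called only without that array (1.55, adjusted p = 0.0233) and under no other alternative tried. Neither of its dimmer probe sets separated the groups (0.12 and -0.04). Tnfrsf4, Tnfrsf8, Tnfrsf18 and Tnfrsf25, receptors found mainly on T cells, had log2 changes of -0.26, -0.15, -0.38 and -0.52, of which only the groups of Tnfrsf18 did not overlap (106.8 to 142.4 units in apoE-/-, 143.8 to 195.7 units in wild type). The smallest adjusted p of these 4 was 0.362.

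None of the remaining receptors above the filter was called. Ltbr, the lymphotoxin beta receptor of stromal cells, read 1285, 1144 and 1150 units in apoE-/- aorta and 1125, 1242 and 1169 units in wild-type aorta, with a log2 change of 0.02 ± 0.10 (SE; 95% interval -0.20 to 0.24). Fas, the death receptor, read 1469, 1255 and 1531 units in apoE-/- aorta and 1863, 1848 and 1214 units in wild-type aorta, with a log2 change of -0.19 ± 0.17 (95% interval -0.57 to 0.20). Both intervals exclude a change of 1 on the log2 scale in either direction. Tnfrsf22 and Tnfrsf23, mouse decoy receptors for TRAIL, had log2 changes of -0.13 and 0.10, and the other kept Tnfrsf22 probe set gave 0.06. Ngfr, the neurotrophin receptor of nerve and Schwann cells, had a log2 change of -0.09, the BAFF receptor Tnfrsf13c of -0.09, and Eda2r, a receptor of an ectodysplasin isoform, of 0.26 with groups that did not overlap (167.3 to 217.3 units in apoE-/-, 141.8 to 166.5 units in wild type). The 95% interval ran from -0.76 to 0.58 for Tnfrsf13c, from -0.58 to 0.39 for Ngfr and from -0.15 to 0.67 for Eda2r. The limma adjusted p of these 7 remaining receptors ran from 0.498 (Eda2r) to 0.946 (Ltbr).

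The 14 genes under the filter had no place in that comparison. In the fit of all 18193 genes without the filter none of them was called (2 at an unadjusted p under 0.05 in limma), and Tnfrsf1b alone of the 37 members was, where 1.99% of all genes were called. Groups did not overlap in 13 of the 37, where 21.7% of all genes did not. Among the 14 dim genes alone 3 were higher and 1 lower without overlap, where 14.4% of all genes under the filter had separate groups and 5.19% were higher. Tnfrsf13b, the TACI receptor of BAFF, had the highest log2 change of the 14 (1.32 ± 0.38, SE, limma adjusted p = 0.153). It read 151.1, 110.6 and 274.3 units in apoE-/- aorta, against 50.8, 38.7 and 91.7 units in wild-type aorta. Of 5 B cell markers with a probe set, none was called, and the sums overlapped (751 to 1036 units in apoE-/-, 543 to 971 units in wild type); their part in the Tnfrsf13b values was not tested. Tnf, described above, and Cd27 (0.33, 46.5 to 65.2 units in apoE-/- against 37.7 to 45.2 units in wild type) were the others higher without overlap. Tnfrsf10b, the mouse death receptor for TRAIL, was the member lower without overlap, at 75.6, 67.3 and 88.2 units in apoE-/- aorta and 103.5, 123.1 and 116.5 units in wild-type aorta (-0.49 ± 0.22, adjusted p = 0.335); its dimmer probe set overlapped (-0.19).

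The other dim members overlapped between genotypes. Ltb, the membrane anchor of lymphotoxin, read 125.7, 89.3 and 271.9 units in apoE-/- aorta and 126.5, 14.6 and 75.6 units in wild-type aorta, so its log2 change of 1.14 ± 0.60 came with a wide spread in both groups. Tnfsf14, the ligand LIGHT, and Tnfsf11, the osteoclast factor RANKL, did not exceed 48.5 units on any array, nor did Lta. Fasl and Cd70, ligands of cytotoxic and activated lymphocytes, had log2 changes of -0.29 and -0.08, and Tnfrsf14, Tnfrsf17 and Tnfrsf19 of -0.20, 0.34 and -0.17. The antisense transcript Tnfsf13os had probe sets of opposite sign, 0.65 and -0.94.

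Ligands and receptors were then set side by side, since a signal needs both. Of 25 textbook pairs within the family, 20 had both partners on the arrays and 7 had both above the filter. In these 7 no partner was called; 2 pairs had both changes positive, 1 had both negative and 4 had opposite signs, among them Tnfsf8 at 0.00 with Tnfrsf8 at -0.15. The most divergent was Cd40lg with Cd40, at -0.68 and 0.59. Tnfsf4 with Tnfrsf4 was negative for both, at -0.60 and -0.26, and Tnfsf9 with Tnfrsf9 positive for both, at 0.19 and 1.07. Tnfsf10 at 0.41 stood beside decoy receptors at -0.13 and 0.10 and beside the dim death receptor Tnfrsf10b at -0.49. Tnfsf13b at 0.44 stood beside Tnfrsf13c at -0.09 and the dim receptors Tnfrsf13b at 1.32 and Tnfrsf17 at 0.34. The called receptor Tnfrsf1b at 1.26 had only dim ligands, Tnf at 1.06 and Lta at 0.25. Differences within pairs were not tested, and levels of different probe sets are not comparable, so these are changes and not amounts.

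**Figure D3:**
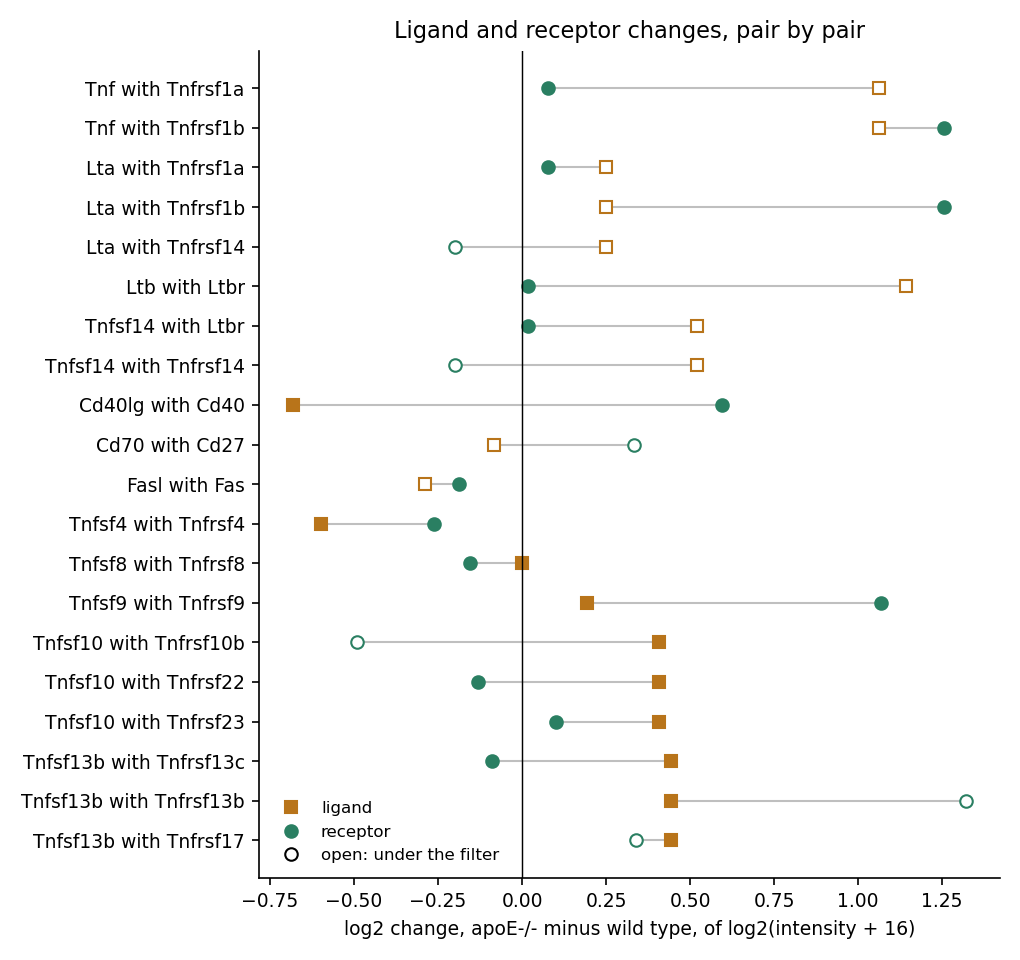
Log2 change, apoE-/- minus wild type, of the ligand (square) and the receptor (circle) of each of the 20 pairs with both partners on the arrays, joined by a line; open symbols are genes under the filter, whose changes come from the fit without it. In 4 of the 7 pairs with both symbols filled the partners lie on opposite sides of 0, and no partner in the 7 was called. Among those 4, Tnfsf8 (0.00 ± 0.33), Tnfrsf13c (-0.09 ± 0.29) and Tnfrsf22 (-0.13 ± 0.15) have changes smaller than their SE. Differences within pairs were not tested.

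Genes that act with or after these receptors were read from a list of 57, of which 44 were above the filter. Of the 44, 6 were called higher in apoE-/- aorta and none lower, with 35 positive and 9 negative log2 changes. An unadjusted p under 0.05 in limma was found for 15 of the 44 (34.1%), where 18.4% of all tested genes had one. Groups did not overlap in 14 genes higher in apoE-/- aorta and 1 lower (Nfkb2, -0.35), where 10.9% of all tested genes were higher and 13.8% lower without overlap. The 14 include Ccl2, Nfkbie and Cxcl10, whose wild-type means were below the dimmest kept probe set, near 119 units. They passed the filter through the apoE-/- arrays, are also among the 15, and Ccl2 and Nfkbie are among the 6 called. The counts were not adjusted for that. The median of their log2 changes was 0.21, and over all genes tested it was -0.05, with 3.15% called higher. The calls lay among the induced targets, of which 5 of 10 were called, and at Nfkbie, 1 of 6 NF-kB subunits and inhibitors. Nfkbie is an inhibitor of NF-kB that NF-kB itself induces. None of 12 adaptors and kinases, 7 genes of the death machinery, 6 negative regulators and 3 genes of ligand release was called. Several listed targets were described for these arrays before the list was drawn up, so their rise is not independent evidence.

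Among the induced targets, Vcam1, an adhesion molecule of activated endothelium, averaged 7156 ± 1590 units in apoE-/- aorta and 2128 ± 244 units in wild-type aorta (SD, n = 3 each; log2 change 1.73 ± 0.16, SE, limma adjusted p = 0.00111). Icam1, its partner in leukocyte capture, read 2000, 1374 and 1695 units in apoE-/- aorta, against 937.2, 683.7 and 719.6 units in wild-type aorta (1.10 ± 0.17, adjusted p = 0.00985). Tnfaip2, a TNF-induced gene of endothelium and myeloid cells, read 1777, 1308 and 2840 units in apoE-/- aorta, against 646.2, 628.0 and 507.0 units in wild-type aorta (1.64 ± 0.25, adjusted p = 0.00985). These 3 targets were higher on every apoE-/- array than on any wild-type array. The macrophage marker sums given above separated the genotypes in the same direction, as did the dendritic cell sums, in which only Itgax was called. So did the sums of 5 fibroblast markers, at 42809 to 54648 units in apoE-/- and 37089 to 38274 units in wild type (1 called higher, Lum). The part of these cell types in the rises of the targets was not tested. Cxcl1, a chemokine that attracts neutrophils, read 1695, 1206 and 1090 units in apoE-/- aorta, against 764.5, 667.8 and 614.5 units in wild-type aorta (0.93 ± 0.17, adjusted p = 0.0223). Ccl2, a chemokine that attracts monocytes, read 552.9, 240.6 and 567.8 units in apoE-/- aorta, against 20.3, 85.9 and 83.9 units in wild-type aorta (2.62 ± 0.46, adjusted p = 0.0194). All wild-type values of Ccl2 were below the dimmest kept probe set, near 119 units, so it passed the filter only through the apoE-/- arrays, and with no detection calls the size of its change is uncertain; without the filter it was still called (adjusted p = 0.0412). Nfkbie read 356.7, 194.5 and 363.7 units in apoE-/- aorta, against 120.7, 85.5 and 113.6 units in wild-type aorta (1.35 ± 0.26, adjusted p = 0.0297). Its wild-type mean of 106.6 units was likewise below that level, so it too passed the filter through the apoE-/- arrays, and without the filter it was not called (adjusted p = 0.0578). The call was also lost without every single array except apoE-/- replicate 2 (adjusted p from 0.0690 to 0.133). Without apoE-/- replicate 1 only 1 pathway gene, Vcam1, was called, since Ccl2 (0.101), Tnfaip2 (0.0525), Icam1 (0.0512) and Cxcl1 (0.0587) missed the threshold there; Ccl2 also missed it without apoE-/- replicate 3 (0.0909), and Cxcl1 without wild type replicate 2 (0.0566) or wild type replicate 3 (0.0830).

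The other induced targets were not called, although all 10 had a positive log2 change. Cxcl10 (0.84) and Tnfaip8 (0.43) were higher in apoE-/- aorta without overlap, while Tnfaip6 (0.46) and Ier3 (0.28) overlapped. Sod2, a mitochondrial antioxidant enzyme that TNF induces, had the smallest change of the 10 targets. It averaged 4828 ± 924 units in apoE-/- aorta and 4798 ± 1236 units in wild-type aorta (log2 change 0.02, limma adjusted p = 0.964). Nfkbia, the main NF-kB inhibitor, was listed with the NF-kB subunits and inhibitors and had a log2 change of 0.10 (adjusted p = 0.642). In the other subgroups the smallest p belonged to Bid, a death-promoting protein cut by caspase 8 (0.95 ± 0.22, adjusted p = 0.0514), to Tnfaip3, the deubiquitinase that dampens NF-kB (0.60 ± 0.16, adjusted p = 0.0866), to Tank, a TRAF-binding adaptor (0.47 ± 0.16, adjusted p = 0.158), and to Adam10, a sheddase (0.36 ± 0.12, adjusted p = 0.158). Tnfaip3 read 1029, 1038 and 1066 units in apoE-/- aorta, against 651.5, 557.8 and 879.5 units in wild-type aorta, without overlap.

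**Figure D4:**
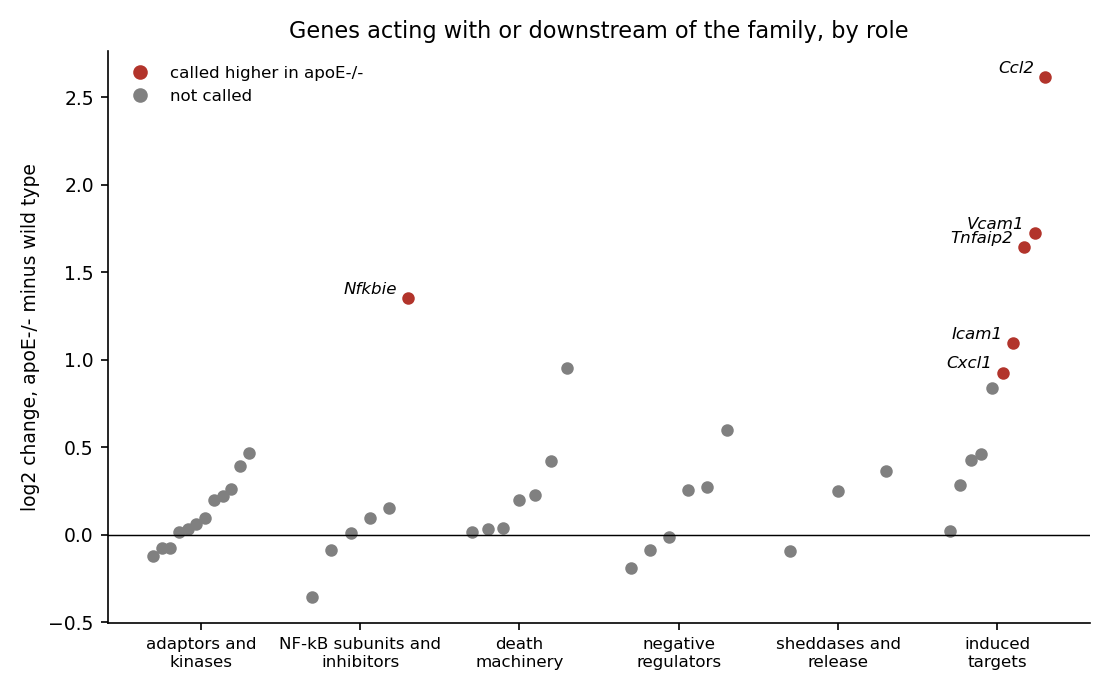
Log2 change, apoE-/- minus wild type, of the 44 tested pathway genes outside the family, grouped by role and ordered by size within each group; red points with names passed the test. The called genes are 5 induced targets and Nfkbie, and the adaptors and kinases lie between -0.12 and 0.47.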

How the data were processed

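Aorta RNA was measured on 6 single-colour arrays. In the table the authors deposited, each probe set has an intensity on a linear scale; tested on the values, the mean after trimming 2% at each end was 500.002 on all arrays, so the arrays had been scaled to a common level. For software and scanning: not given in the sources used here. Platform annotation gave 1 symbol to 34958 probe sets, several to 932 (not used to name genes). Symbols of 34754 probe sets were matched to the GRCm38.p6 RefSeq table, the source of the printed sequences.

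Control probe sets (64) and the dimmer 40% by mean log2(intensity + 16) (18015) were left out. The brightest kept probe set stood for each of 13031 genes, fitted with limma 3.58.1 in R 4.3.3 (lmFit, eBayes with trend), genotype as only term; the code was tested on simulated data. An exact permutation test of 3 against 3 cannot go below 0.1 (two-sided), so none is given. With 3 arrays a group, their number limits the precision.

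Members and gene lists were chosen with earlier results of these data known. Values on every array are given for called members, for members without overlap and an absolute log2 change of at least 0.4, and for partners of called members. Some others (such as Tnfrsf1a, Ltbr, Fas, Cd40, Tnfrsf9, Ltb) were added after their values were seen, as were Nfkbia and the induced targets not called. Alternatives covered the offset, normalization, filter, trend, array weights, probe set choice, each array left out in turn, the replicate block and a two-sample test on each gene alone.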

Additional observations from a re-analysis of the deposited data

Results flagged for a closer look

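Probe sets annotated to several genes fell outside the rule and outside every comparison, and 2 of the 3 that name a family gene had all apoE-/- values above all wild-type values. The one annotated jointly to Tnfsfm13, Tnfsf13 and Tnfsf12 read 764.7, 638.7 and 964.4 units in apoE-/- aorta and 574.1, 433.1 and 304.7 units in wild-type aorta, a difference of 0.85 in mean log2. The one annotated jointly to Tnfrsf22 and Tnfrsf23 read 336.2, 222.7 and 430.9 units in apoE-/- aorta and 203.7, 178.3 and 193.9 units in wild-type aorta, a difference of 0.69. Neither signal can be given to a single gene, and neither difference was tested. Over all named probe sets, 20.1% separated the groups in one direction or the other.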

How the results depend on the processing

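Tnfrsf1b kept a positive and Tnfrsf12a a negative log2 change under all 18 alternatives, but their calls did not hold throughout. Against 1 member called higher and 1 lower, the counts were 0 and 0 with no intensity trend, with probe sets of a gene reduced to their median, with the replicate block and with the ordinary two-sample test (lowest adjusted p of any gene 0.103), 2 and 1 with array weights, and 1 and 0 with median centring and with no filter; single arrays left out gave 0 to 2 higher and 0 to 1 lower. Pathway genes called higher were 6, 0 in the two-sample test and 1 to 8 with single arrays left out. Over all genes, 410 were called higher and 63 lower; the two-sample test called 0 and 0 (2069 genes at an unadjusted p under 0.05), leaving out single arrays gave 145 to 545 higher and 10 to 156 lower, and the lower count was 41 with median centring, 31 with no trend, 121 with array weights and 18 with the replicate block. Apoe kept its call except in the two-sample test (-4.65, adjusted p = 0.198), with single arrays left out between -5.25 and -3.89. The labels do not say whether equal replicate numbers pair the arrays. Deviations of same-numbered arrays correlated at -0.10, -0.18 and -0.05, and those of differently numbered arrays at -0.14 to 0.21. With the replicate block Tnfrsf1b had limma adjusted p = 0.0714 and Tnfrsf12a adjusted p = 0.0755, while 6 pathway genes were called higher as before. With a 60% filter, only 10 of the 23 members and 37 of the 44 pathway genes were tested, and the others had no value. The causes were not tested. No detection calls exist, so values of dim members may be background.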

Other observations

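Family genes that lie next to each other in the GRCm38.p6 gene table, with no other protein-coding gene starting between them, did not share one change. On chromosome 4, Tnfrsf1b (1.26) is followed by Tnfrsf8 (-0.15), and Tnfrsf4 (-0.26) by Tnfrsf18 (-0.38). On chromosome 17, the dim genes Ltb, Tnf and Lta stand in a row with log2 changes of 1.14, 1.06 and 0.25, and Tnfsf9, Cd70 and Tnfsf14 in another with 0.19, -0.08 and 0.52. On chromosome 7, Tnfrsf22 (-0.13) stands beside Tnfrsf23 (0.10). These are 7 neighbouring pairs, described without a test.

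A probe set annotated jointly to Tnfsfm13 and Tnfsf12 read 1884, 1742 and 1617 units in apoE-/- aorta and 1663, 1464 and 1624 units in wild-type aorta, with overlapping groups, and cannot be given to either gene.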
